A study of Mus musculus with 3 samples.

Results

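Oligodendrocyte precursor-like cells made up 2650 of 17920 cells in 3 single-cell libraries of cultured mouse neural progenitors. They were chosen by measured values, the unique molecular identifiers (UMIs, each counted as 1 captured transcript) of 8 genes. A cell was a barcode with at least 3000 UMIs, at least 500 genes and at most 20% of UMIs from mitochondrial genes. A precursor-like cell had a UMI of at least 2 of the 5 marker genes Pdgfra, Lhfpl3, Pcdh15, Sox10 and Cntn1, and of fewer than 2 of Bcas1, Enpp6 and Gpr17, which mark differentiating cells of the same lineage.

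The progenitors came from postnatal day 1 mice, were grown as neurospheres with 20 ng/mL epidermal growth factor, and were plated at 50000 cells on coated plastic dishes or on localized electroporation devices. After 16 h they received bulk electroporation in a commercial nucleofection unit, localized electroporation on the device at 20 V with 400 pulses, or neither (control), and they were dissociated 4 h after treatment. The 3 groups had 1 library each, with 10000 cells loaded for 3′ droplet sequencing, so no test over samples was possible and every interval given covers counting error only. The labels name no strain, number of animals or delivered cargo, and do not say whether control cells lay on dishes or on devices, so the device and the pulses cannot be told apart. The 3 libraries held 74429007 UMIs (control), 85743257 UMIs (bulk) and 83803032 UMIs (localized). They shared 6 to 9 cell barcodes per pair and 0 barcodes of precursor-like cells.

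Oligodendrocyte precursor cells are the dividing glial cells that give rise to the myelin-forming oligodendrocytes of the brain and persist into adulthood. They carry the platelet-derived growth factor receptor encoded by Pdgfra, whose ligand drives their division, and the proteoglycan NG2 encoded by Cspg4. They receive synapses from neurons, so glutamate receptors and ion channels belong to their usual profile. On differentiation they pass through a Bcas1 and Gpr17 positive stage and then switch on myelin genes such as Mbp. Epidermal growth factor keeps postnatal forebrain progenitors dividing, and such cultures can hold Olig1 and Olig2 transcripts outside the precursor lineage.

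Precursor-like cells were 16.5% of control cells (1005 of 6091, 95% Clopper-Pearson interval 15.6 to 17.5%), 15.3% of bulk cells (847 of 5531, 14.4 to 16.3%) and 12.7% of localized cells (798 of 6298, 11.9 to 13.5%). They were shallower than the other cells of their library, with median UMIs of 6133 against 10022 in control, 8166 against 12042 in bulk and 8213.5 against 11209.5 in localized electroporation. Their share depended on depth in a way that was not uniform. Between 3000 and 6000 UMIs the rule took 46.0% of control, 41.1% of bulk and 31.6% of localized cells, and between 10000 and 15000 UMIs it took 5.89, 7.203 and 6.50%. Above 25000 UMIs the share was higher again, at 26.5, 22.3 and 20.2%.

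Because a deeper cell has more chances to show a marker, every cell was also thinned at random to 3000 UMIs before the 8 genes were read. Control then had 9.80% (9.07 to 10.6%), bulk 6.56% (5.92 to 7.25%) and localized electroporation 8.02% (7.36 to 8.72%). The order of the libraries was not stable: control was highest under the rule as given and after thinning, bulk was highest with a minimum of 6000 UMIs (12.1% against 10.3% in control and 11.1% in localized), and localized was highest when at least 3 of the 5 markers were required (8.24% against 7.57 and 7.07%) or when Pdgfra itself was required (7.08% against 6.22 and 5.64%). With 1 library a group, no difference in abundance between the treatments is claimed.

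**Figure D1:**
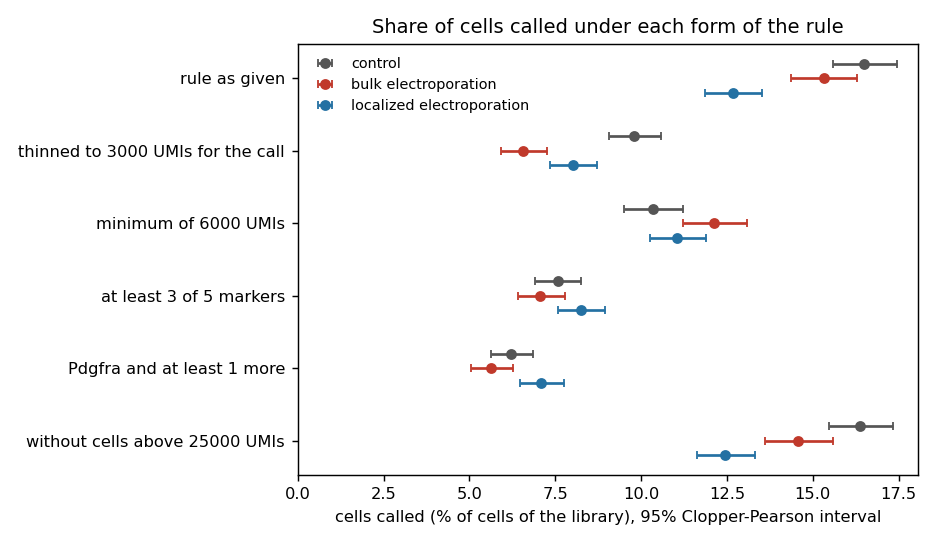
Share of cells called precursor-like in each library (x axis, percent of the library's cells) under the rule as given and under 5 other forms of it (y axis). Points are shares and bars are 95% Clopper-Pearson intervals. The highest library was control at 16.5% under the rule as given, bulk at 12.1% with a minimum of 6000 UMIs and localized at 8.24% with at least 3 markers.

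The barcodes above 25000 UMIs stood apart, and part of the results is also given without them. In bulk, 119 precursor-like cells above 25000 UMIs held 43.85% of all UMIs of precursor-like cells, against 18 cells with 7.094% in control and 35 cells with 13.88% in localized electroporation. After thinning, 1 of the 533 bulk cells above 25000 UMIs met the rule (0.188%), 2 of 68 in control (2.94%) and 19 of 173 in localized (10.98%). Pdgfra, which helped to choose the cells, had a UMI in 27.7% of the 119 rich bulk precursor-like cells and in 38.3% of the 728 up to 25000 UMIs, and after thinning in 0 and 20.9%. Doublets could be among the rich barcodes; this was not tested, and no doublet caller was run. Bulk values are for all precursor-like cells unless the text says up to 25000 UMIs, and the second value is given for some results only.

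The rule's own genes are described first, with no test, since they chose the cells. Lhfpl3, a membrane protein gene used as a precursor marker, was at 248 CPM (UMIs of the gene scaled to the same total of UMIs in every class and library) in control, 142 CPM in bulk and 190 CPM in localized precursor-like cells, and Cntn1, which encodes the adhesion molecule contactin 1, at 218, 114 and 168 CPM. Pdgfra (chromosome 5, 75152292 to 75198215, plus strand, GRCm38) was at 81.9, 44.6 and 114 CPM. Sox10, the transcription factor of the whole oligodendrocyte lineage (chromosome 15, 79154908 to 79165240, minus strand), was at 55.7, 38.9 and 137 CPM. Pcdh15, a protocadherin gene, was at 51.1, 29.9 and 40.8 CPM. All 5 were lowest in bulk, and Pdgfra and Sox10 were highest in localized electroporation. Among bulk cells up to 25000 UMIs, Pdgfra was at 72.6 CPM, Sox10 at 63.2 CPM and Lhfpl3 at 221 CPM, so the order of bulk and control for Sox10 turned without the rich barcodes.

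The pairs of genes behind the call differed between libraries. Of cells with exactly 2 markers, the pair Lhfpl3 and Cntn1 accounted for 59.2% in control (322 of 544), 54.4% in bulk (248 of 456) and 36.6% in localized electroporation (102 of 279). In the localized library 35.0% of precursor-like cells had exactly 2 markers and 9.90% had all 5, against 54.1% and 3.58% in control and 53.8% and 2.95% in bulk. Sox10 had a UMI in 59.1% of localized precursor-like cells, 26.2% in control and 30.6% in bulk, and in 33.8, 16.2 and 14.4% after thinning. In other cells the unthinned shares were 5.89, 2.46 and 1.71%. Enpp6, a gene of newly forming oligodendrocytes, was rare, with 2, 1 and 2 precursor-like cells carrying a UMI in control, bulk and localized electroporation. The other excluded genes were not rare. Gpr17 had a UMI in 9.25, 7.32 and 18.8% of precursor-like cells, against 2.32, 1.345 and 5.31% of other cells. For Bcas1 the shares were 6.87, 9.68 and 19.9%, against 5.15, 4.61 and 8.85%. Another 86 control, 40 bulk and 228 localized cells had at least 2 of the 5 markers and at least 2 of Bcas1, Enpp6 and Gpr17. They were not called precursor-like and are counted among the other cells.

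Genes the rule did not read were also compared. Of 25 other genes known from oligodendrocyte precursors, 22 reached 5 CPM in the control library, 21 in bulk and 22 in the localized one, and those were higher in precursor-like than in other cells of the same library. The limit of 5 CPM could be met through the precursor-like class alone, as for Lnx1, and of the genes under it Emid1 had log2 ratios of -0.13, 0.00 and -0.07 and Neu4 of 0.57, 0.23 and -0.31, so the counts are a description and do not support the name. The median log2 ratio, computed on CPM plus a pseudocount of 1 as are all log2 ratios here, came to 1.44 for control, 1.06 for bulk and 1.11 for localized electroporation, beside 0.09, 0.06 and 0.04 over all genes of at least 5 CPM. Up to 25000 UMIs the medians were 1.49, 1.47 and 1.24. Since the rule divides cells of the same library, these ratios are a description and carry no test.

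C1ql1, which encodes a secreted complement-like protein of precursors (chromosome 11, 102939264 to 102946688, minus strand), was at 13.1 CPM in control, 13.6 CPM in bulk and 27.8 CPM in localized precursor-like cells, and at 1.95, 1.23 and 5.22 CPM in other cells. Cspg4, the NG2 gene (chromosome 9, 56865033 to 56899870, plus strand), was at 38.3, 35.9 and 46.7 CPM against 11.6, 13.3 and 15.5 CPM. For both genes the lowest precursor-like library was above the highest library of other cells. Dll3, a ligand-like regulator of Notch signalling, was at 46.7, 39.7 and 97.0 CPM against 6.85, 7.38 and 16.1 CPM. Tnr, the extracellular matrix gene of tenascin R, was at 47.0, 26.2 and 49.5 CPM against 6.53, 3.10 and 12.6 CPM. Lnx1, a ubiquitin ligase gene, had the largest ratio of the list in control, with a log2 ratio of 3.09. Matn4, Neu4 and Emid1 stayed under 5 CPM in both classes of every library, and Gpr37l1 did so in bulk.

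Olig1 and Olig2, the lineage-defining transcription factors, separated the classes less. Olig1 was at 491 CPM in control, 485 CPM in bulk and 835 CPM in localized precursor-like cells and at 297, 330 and 449 CPM in other cells. The log2 ratios of Olig2 were 0.72, 0.35 and 0.76. Both genes were thus also abundant in the other cells.

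**Figure D2:**
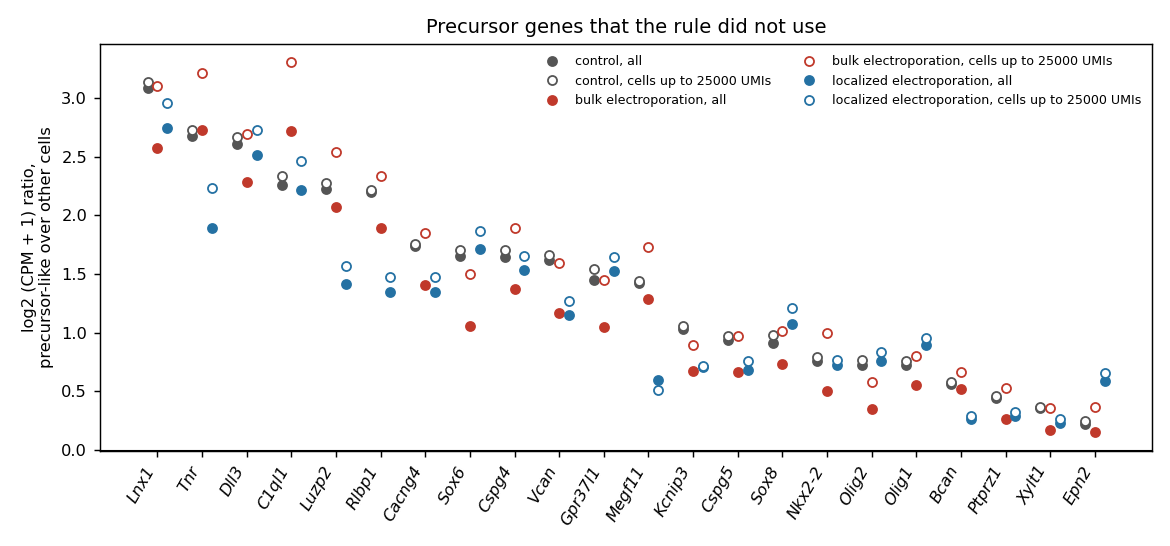
Log2 ratio of CPM plus 1 in precursor-like over other cells (y axis) for the 22 precursor genes outside the rule that reached 5 CPM (x axis), in each library. Filled points use all cells and open points cells up to 25000 UMIs; in control the ratio of Lnx1 is 3.09 and that of Olig1 is 0.72.

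Levels of these genes followed the number of rule markers a cell showed. Across control cells with 0, 1, 2, 3, 4 and 5 markers, C1ql1 was at 0.469, 2.30, 9.13, 27.2, 29.5 and 34.9 CPM, and Olig1 went from 280 CPM at 0 markers to 535 CPM at 5. The largest step of C1ql1 in control lay between 2 and 3 markers. At the rule's threshold, cells with 1 marker, just outside, had Cspg4 at 14.5 CPM in control, 17.0 CPM in bulk and 16.2 CPM in localized electroporation, and cells with 2 markers, just inside, had 32.6, 28.5 and 26.6 CPM. Nes, an intermediate filament gene of neural progenitors, was at 347 CPM in control cells with 0 markers and 159 CPM in those with 5, and Vim, another such gene, went from 2776 to 1245 CPM. Egfr, the receptor for the growth factor in the medium, was at 140 CPM with 0 markers and 67.4 CPM with 4 in control.

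**Figure D3:**
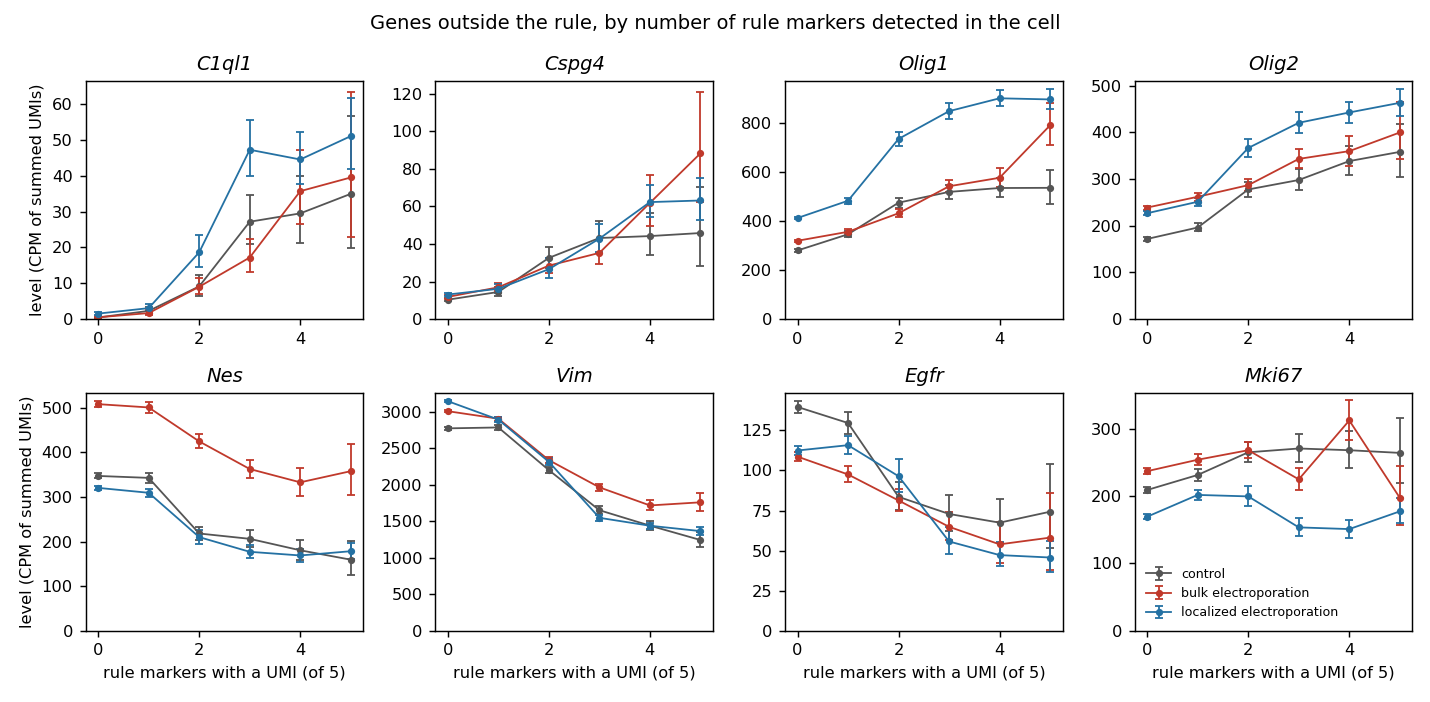
Level (y axis, CPM of summed UMIs) of 8 genes outside the rule in all cells with 0 to 5 of the rule's markers detected (x axis), by library; bars are 95% Poisson intervals. In control C1ql1 goes from 0.469 to 34.9 CPM and Nes from 347 to 159 CPM.

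Genes of astrocytes and of neural stem and progenitor cells were mostly lower in precursor-like cells. The 20 genes of differentiating oligodendrocytes were not lower in sum. They summed to 503, 446 and 663 CPM, against 395, 375 and 546 CPM in other cells. Of 9 that could be compared, 6 were above and 3 below other cells in control and in bulk, with median log2 ratios of 0.30 and 0.17. The count for the localized library is not given here. Genes of the list went both ways in it, with Ugt8a at 23.1 against 5.72 CPM and Mbp at 2.63 against 7.90 CPM. Of 16 astrocyte genes, 13 could be compared in control and bulk and 14 in the localized library. Their median log2 ratios against other cells were -1.14 in control, -0.53 in bulk and -1.13 in localized. Without cells above 25000 UMIs the medians were -1.25, -1.14 and -1.43. The summed level of all 16 was 515, 779 and 730 CPM against 1160, 1192 and 1717 CPM. The 18 neural stem and progenitor genes had medians of -0.50, -0.40 and -0.62 (-0.52, -0.65 and -0.76 up to 25000 UMIs) but summed to 6701, 7769 and 7614 CPM in precursor-like cells, beside 8769, 9841 and 12246 CPM in other cells. Microglia and macrophage genes summed to 0 UMIs in control, 2 UMIs in bulk and 3 UMIs in localized precursor-like cells, and erythroid genes to 0, 1 and 0 UMIs. The 10 endothelial and mural genes summed to 1.78, 2.44 and 1.37 CPM.

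Neuronal genes that could be compared were mostly higher in precursor-like cells. All 16 genes of neuroblasts and neurons summed to 729, 804 and 756 CPM there, against 529, 626 and 514 CPM in other cells. The 16 genes of neuroblasts and neurons, 7 of which could be compared, had median log2 ratios against other cells of 1.21, 1.07 and 0.90, and in bulk of 1.46 up to 25000 UMIs. Dcx, the microtubule gene of migrating neuroblasts, was at 8.11, 6.28 and 6.75 CPM against 0.557, 0.666 and 0.919 CPM. It thus met the limit of 5 CPM through the precursor-like class alone. Elavl3, a neuronal RNA-binding protein gene, was at 52.1, 55.8 and 52.5 CPM against 17.2, 20.8 and 20.5 CPM. Dlx5 and Gad2, genes of inhibitory neurons, were at 0 UMIs in precursor-like cells of all 3 libraries. Whether cells of a neuronal type took part in the call was not tested.

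Of the genes of glutamate receptors and channels, 13 of 17 were above other cells in control, 14 of 16 in bulk and 14 of 16 in localized electroporation, with median log2 ratios of 0.87, 0.73 and 0.77. Adhesion and guidance genes went both ways, with 12 of 22, 12 of 20 and 12 of 22 above and medians of 0.36, 0.12 and 0.07, beside 0.09, 0.06 and 0.04 over all genes. Over all genes, at least 2-fold higher in precursor-like cells in all 3 libraries were 68 of 5537 genes of at least 20 CPM (1.23%), and at least 2-fold lower were 16 (0.289%). These counts were 130 and 131 without cells above 25000 UMIs and 204 and 193 with cells called after thinning, and 137 and 134 when levels were means over cells. Among genes of at least 50 CPM in either class of every library, those furthest above by the library nearest to 0 were Cadm2, a synaptic adhesion molecule gene, with log2 ratios of 2.67 in control, 2.30 in bulk and 2.10 in localized, Neto1, an auxiliary subunit of glutamate receptors, with 2.19, 1.83 and 2.21, and Epb41, a membrane skeleton gene, with 2.17, 1.80 and 1.97. Gria2, the AMPA receptor subunit that limits calcium entry, was at 263, 171 and 220 CPM against 70.7, 54.9 and 60.2 CPM. Cacng4, an AMPA receptor auxiliary subunit, had log2 ratios of 1.74, 1.41 and 1.34. Fchsd2, Hist3h2ba, Adgrl3, Pcdh17, Elavl3, Fxyd6, Igsf9b, Alcam, Podxl2 and Crmp1 completed the 15 highest, with log2 ratios of at least 1.18 in every library.

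Of the growth factor receptors on the list, 11, 8 and 7 of 21 were above other cells in control, bulk and localized electroporation, with median log2 ratios of 0.02, -0.07 and -0.16. Erbb4, a neuregulin receptor, was at 38.9 CPM in control, 18.8 CPM in bulk and 35.0 CPM in localized precursor-like cells against 5.12, 3.42 and 6.29 CPM in other cells. Kit, the stem cell factor receptor, had log2 ratios of 2.39, 2.13 and 2.32, with 22.7 against 3.51 CPM in control. Kitl, which encodes the ligand of Kit, was on the opposite side, with log2 ratios of -1.47, -1.17 and -1.18. Receptor and ligand were thus highest in different classes of the same cultures.

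The 15 furthest below were Slc4a4, Kitl, Id1, Cybrd1, Id3, Acta2, Car3, Acadl, Ctsc, Anxa5, Rab3b, S100a11, Igfbp2, Mef2c and Tagln. Id1 and Id3, inhibitors of basic helix-loop-helix factors and targets of bone morphogenetic protein signalling, had log2 ratios of -1.35 and -1.59 in control, -1.11 and -1.09 in bulk and -1.51 and -1.45 in localized electroporation. Slc4a4, a sodium bicarbonate transporter gene of glia, was at 43.7, 35.8 and 34.1 CPM against 138, 93.8 and 90.6 CPM. Tagln and Acta2, smooth muscle actin cytoskeleton genes, had ratios of -2.29 and -1.91 in control and -2.43 and -2.14 in localized electroporation. The bulk ratio was nearest to 0 for each of the 15, with Tagln at -0.92. Up to 25000 UMIs the bulk ratio of Tagln was -2.10, beside -2.86 in control and -2.78 in localized, and that of Slc4a4 was -2.25, beside -1.89 and -1.64, so this order did not hold for Slc4a4.

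The place of division genes depended on how the cells were called. Mki67, a gene of dividing cells, was at 287 CPM in control, 266 CPM in bulk and 196 CPM in localized precursor-like cells against 211, 240 and 173 CPM in other cells. The 22 genes of the G2 and M phases had median log2 ratios against other cells of 0.28, 0.00 and 0.07, and the 20 S phase genes -0.09, -0.02 and -0.25. With cells called after thinning the medians were -0.01, -0.30 and -0.43 for G2 and M and -0.31, -0.27 and -0.72 for S phase, with 0 of 22 and 0 of 20 genes above other cells in localized electroporation. In cells called at full depth and then thinned, Mki67 had a UMI in 31.7, 35.4 and 21.2% of precursor-like cells and in 30.8, 33.9 and 25.1% of other cells.

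Between libraries, the comparison of bulk with control asks what the nucleofection changed in these cells. Before the rich barcodes were set aside, 95 of 6129 genes (1.55%) exceeded control by 2-fold or more in bulk precursor-like cells and 49 (0.799%) lay below it by 2-fold or more, beside 37 of 5774 (0.641%) and 36 (0.623%) in other cells. Of the 95 genes, 27 were past 2-fold among cells up to 25000 UMIs, and of the 49, 21 were so there, in the same direction. Among cells up to 25000 UMIs 19 genes of at least 20 CPM were higher and 25 lower. The counts for bulk thus rested for the larger part on 119 barcodes.

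Interferon-response genes had the largest ratios. Of 20 genes on the list 15 reached 5 CPM in bulk or control precursor-like cells, all 15 were higher in bulk, and the median log2 ratio was 4.07 (0.08 over all genes, 4.21 in other cells). Among cells up to 25000 UMIs 9 genes reached 5 CPM, all higher in bulk, with a median of 3.02. Cxcl10, a chemokine gene induced by interferon (chromosome 5, 92346638 to 92348889, minus strand), was at 417 CPM in bulk (4780 UMIs), 0.634 CPM in control (5 UMIs) and 1.95 CPM in localized precursor-like cells (17 UMIs). Isg15, a ubiquitin-like antiviral protein gene, had 2212, 1 and 17 UMIs. Ifit1, an antiviral RNA-binding protein gene, had 748 UMIs in bulk and 0 in control, which made it at least 172-fold higher against a floor of 3 UMIs in the control library.

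Most of this came from the rich barcodes. In bulk precursor-like cells up to 25000 UMIs, Cxcl10 was at 83.9 CPM (540 UMIs), Isg15 at 24.1 CPM (155 UMIs) and Ifit1 at 15.7 CPM (101 UMIs), against 844, 409 and 129 CPM above 25000 UMIs. Other bulk cells up to 25000 UMIs had Cxcl10 at 470 CPM, Isg15 at 144 CPM and Ifit1 at 92.6 CPM. After thinning, Cxcl10 had a UMI in 8.52% of the 728 precursor-like cells up to 25000 UMIs (6.59 to 10.8%) and in 28.4% of 4270 other cells (27.0 to 29.7%). Unthinned, the shares were 20.9 and 44.3%. The median log2 ratio of the interferon list in precursor-like over other bulk cells was -1.88 up to 25000 UMIs and -0.34 over all cells.

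Free RNA in the bulk suspension held the same transcripts. Barcodes of 10 to 100 UMIs, which are mostly empty droplets, had Cxcl10 at 393 CPM and Isg15 at 114 CPM in bulk. For the 6 interferon genes that reached 50 CPM in any class, the level in precursor-like cells up to 25000 UMIs was 21.4% of that in the free RNA for Cxcl10, 21.1% for Isg15, 24.3% for Rsad2, 28.35% for Ifit1, 22.4% for Ifih1 and 27.6% for Oasl1. In other cells up to 25000 UMIs the same 6 percentages ran from 93.15 to 167.2%. In precursor-like cells above 25000 UMIs they ran from 195.9 to 359%. The part of captured free RNA in the levels of precursor-like cells was not tested. The ratio of Cxcl10 in bulk to control up to 25000 UMIs was 123-fold (52.4 to 380) in precursor-like and 118-fold (102.9 to 135.8) in other cells.

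**Figure D4:**
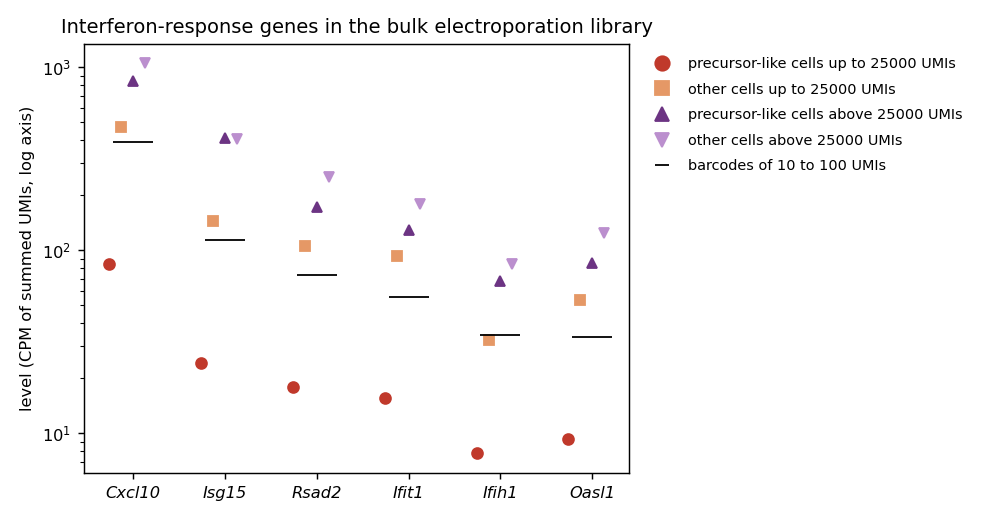
Level (y axis, CPM of summed UMIs, log axis) of 6 interferon-response genes (x axis) in the bulk electroporation library, in precursor-like and other cells up to and above 25000 UMIs and in barcodes of 10 to 100 UMIs. Precursor-like cells up to 25000 UMIs lie lowest for every gene, at 83.9 CPM for Cxcl10 against 393 CPM in the near-empty barcodes.

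The core letters of the interferon-stimulated response element, TTTC, any pair of bases and TTTC again, occur in many promoters of the list, and the windows shown here carry them for the genes the result turns on. On either strand, 10 of 16 interferon genes with a RefSeq promoter (250 bases before to 50 after the start, GRCm38.p6) held them, against 3.443% of all 32851 promoters of the same length. The match is written in capitals, with GAAA first where it lies on the opposite strand, and 20 bases of flank are in lower case; adjoining matches overlap. The windows are Isg15 at chr4:156200855-156200916 (minus strand, 3 matches), Cxcl10 at chr5:92349073-92349122 (minus strand) and Ifit1 at chr19:34640765-34640833 (plus strand, 2 matches).
Isg15: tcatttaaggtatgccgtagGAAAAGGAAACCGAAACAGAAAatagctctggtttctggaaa
Cxcl10: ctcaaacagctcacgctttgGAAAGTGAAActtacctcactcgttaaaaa
Ifit1: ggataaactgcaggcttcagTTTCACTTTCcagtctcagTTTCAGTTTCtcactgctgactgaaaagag
A match describes letters only, and no binding was measured.

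Cholesterol synthesis genes were lower in bulk. All 19 genes of the list had a log2 ratio to control below 0 (median -0.79, beside 0.08 over all genes). At the list limit of 5 CPM 7 were at least 2-fold lower, beside 0.799% of all genes at the higher limit of 20 CPM. Up to 25000 UMIs 17 of 19 were below 0 with a median of -0.51 (-0.65 in other cells). Msmo1, a sterol oxidase gene, was at 339 CPM in control, 111 CPM in bulk and 195 CPM in localized precursor-like cells, and at 141 CPM in bulk cells up to 25000 UMIs. Control was highest for Msmo1 and bulk lowest. The sterol element letters TCACNCCAC, searched in the same way, were found for 1 of 13 genes of the list, against 1.242% of all promoters.

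Among the other genes furthest below in bulk, Hes5, a Notch target that holds progenitors back from differentiation, was at 65.7 CPM in control, 17.6 CPM in bulk and 86.3 CPM in localized precursor-like cells. The ratio of Hes5 in bulk was -1.84 for all cells and -1.67 up to 25000 UMIs, beside -1.51 in other cells. Snhg5, a host gene of small nucleolar RNAs, had a log2 ratio of -1.85 and of -1.601 up to 25000 UMIs. Hist1h2br, Hist1h2ae and Hist1h2bb, histone genes of near-identical copies whose reads may be shared, had ratios of -1.75, -1.52 and -1.38.

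On the higher side, the rich barcodes mattered most. Anxa2, an annexin of membrane repair, had a log2 ratio of 2.62 in bulk over control and of 1.91 up to 25000 UMIs. Lmna, the nuclear lamin A gene, had 2.03 and 1.29. S100a11, a calcium-binding partner of annexins, had 1.80 and 1.18, and Ddit4l, an inhibitor of mTOR signalling, 1.601 and 1.19. Ifitm3, an antiviral membrane protein gene, had 1.77 and 0.40, and -0.06 with cells called after thinning. Apoe, a lipid carrier gene of astrocytes and progenitors, had 1.73 and 1.56, beside 0.31 in other cells. Apoe, counted up to 25000 UMIs, had a UMI in 11.4% of bulk and 9.83% of control precursor-like cells (4.53 and 4.05% after thinning). The astrocyte list had a median ratio of bulk over control of 0.53 in all precursor-like cells (13 genes compared) and 0.02 up to 25000 UMIs (11 genes).

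The precursor genes themselves had a median log2 ratio of bulk over control of -0.44, with 18 of 22 below 0. Up to 25000 UMIs the median was -0.06 with 13 of 22 below 0, near the 0.10 of all genes. Vcan, the versican proteoglycan gene, was at 113 CPM in control, 65.1 CPM in bulk and 92.5 CPM in bulk up to 25000 UMIs. Lnx1 had a ratio of -0.97 and of -0.36 up to 25000 UMIs. The lower level of precursor genes in bulk thus moved with the 119 rich barcodes.

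The comparison of localized electroporation with control asks what the device and its pulses changed. Here 60 of 6092 genes (0.985%) exceeded control by 2-fold or more in precursor-like cells and 52 (0.854%) lay as far below, beside 74 of 5881 (1.26%) and 60 (1.02%) in other cells. Up to 25000 UMIs 54 of the 60 and 50 of the 52 were past 2-fold in the same direction, so the rich barcodes did not decide these counts. The comparison shares its control library with the one above.

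Genes of the integrated stress response, in which the factor ATF4 raises amino acid synthesis and transport genes and Ddit3, were lower in localized electroporation. All 20 genes of the list were below control, with a median log2 ratio of -1.49 (0.09 over all genes, -1.38 in other cells). Of them, 13 were at least 2-fold lower at the list limit of 5 CPM, beside 0.854% of all genes at the higher limit of 20 CPM. Chac1, a glutathione-degrading enzyme gene (chromosome 2, 119351229 to 119354381, plus strand), was at 70.5 CPM in control (556 UMIs), 20.9 CPM in bulk (240 UMIs) and 2.06 CPM in localized precursor-like cells (18 UMIs). Ddit3, which encodes the factor CHOP (chromosome 10, 127290774 to 127296288, plus strand), was at 169, 59.6 and 18.2 CPM. For both genes control was highest and localized lowest, with intervals that do not overlap.

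Atf4 itself was at 294 CPM in control, 187 CPM in bulk and 86.0 CPM in localized precursor-like cells. Mthfd2, a mitochondrial folate enzyme gene, was at 217, 110 and 38.1 CPM, and Slc3a2, the heavy chain of amino acid transporters, had a log2 ratio of -1.71 in localized. Gdf15, a stress-induced secreted factor, had -3.53, Sesn2, a sensor of leucine supply, -1.92, and Slc7a1, a transporter of basic amino acids, -1.72. After thinning, Ddit3 had a UMI in 32.4% of control (29.5 to 35.4%), 14.4% of bulk (12.1 to 17.0%) and 5.64% of localized precursor-like cells (4.14 to 7.47%). In other cells the shares were 37.3, 10.9 and 5.04%, and without thinning precursor-like cells had 50.05, 31.3 and 16.0%. In bulk the list was mixed, with 13 of 20 genes below control and a median of -0.15, or -0.37 up to 25000 UMIs and -0.68 in other cells.

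**Figure D5:**
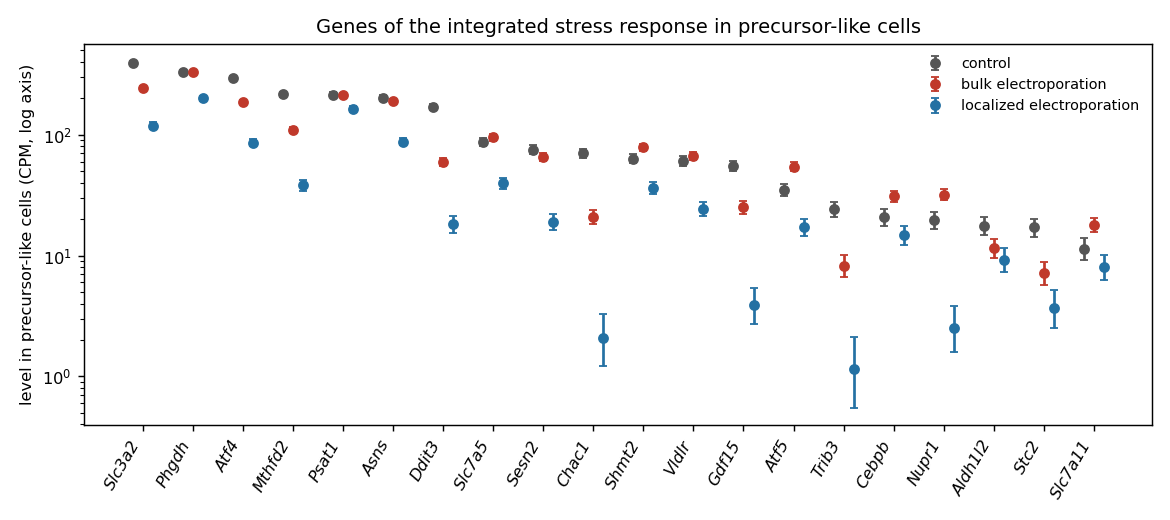
Level (y axis, CPM of summed UMIs, log axis) of the 20 genes of the integrated stress response (x axis) in precursor-like cells of each library; bars are 95% Poisson intervals. Localized electroporation lies below control for all 20 genes, and Chac1 is at 70.5, 20.9 and 2.06 CPM in control, bulk and localized electroporation.

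The core letters of the ATF4 element, TGATGNAA, were found on either strand for 6 of 18 genes of the list with a RefSeq promoter, against 3.969% of all promoters, with genes again counted once. They are shown, with the same marking, for Chac1, where the ratio was furthest from 0, at chr2:119351029-119351076 (plus strand), for Nupr1, a stress-induced chromatin protein gene, at chr7:126625553-126625600 (minus strand), and for Slc7a11, the cystine transporter gene, at chr3:50443633-50443699 (minus strand, 2 matches).
Chac1: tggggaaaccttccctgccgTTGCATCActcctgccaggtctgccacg
Nupr1: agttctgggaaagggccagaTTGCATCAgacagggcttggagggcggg
Slc7a11: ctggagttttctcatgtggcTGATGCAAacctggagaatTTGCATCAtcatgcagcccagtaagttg
In localized precursor-like cells Nupr1 had a log2 ratio of -2.55 to control and Slc7a11 of -0.46, so genes with a match differed in size of change.

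Early oligodendrocyte genes were higher in localized electroporation, while the precursor list lay near all genes. Of 22 precursor genes 14 were above control (median 0.18, beside 0.09 over all genes), and all 10 measured genes of differentiating oligodendrocytes were above control (median 0.41, 0.58 in other cells). On the precursor list, C1ql1 was at 27.8 CPM (24.4 to 31.5) against 13.1 CPM (10.7 to 15.8) in control. Dll3 was at 97.0 against 46.7 CPM, and Sox8, a lineage transcription factor, at 128 against 68.7 CPM. In other cells C1ql1 was at 5.22 against 1.95 CPM, Dll3 at 16.1 against 6.85 CPM and Sox8 at 60.5 against 36.0 CPM. The other cells include 228 localized and 86 control cells with at least 2 markers that Bcas1, Enpp6 and Gpr17 kept from the call. Their part in these levels was not tested. Vcan and Cacng4 of the same list went down in precursor-like cells, to 79.1 from 113 CPM and to 71.4 from 91.5 CPM. Cnp, an early myelin enzyme gene, was at 116 against 57.2 CPM. The localized library also had the largest share of cells with 5 markers, which moves with these levels; its part in them was not tested.

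Immediate early and other genes furthest above control in localized precursor-like cells were Apoe, at 164 against 32.0 CPM, Fos, an immediate early transcription factor, at 50.5 against 13.1 CPM, and Btg2, an antiproliferative gene, at 247 against 88.1 CPM. Pdlim4, Mat2a, Bpgm, Gstm1, Col11a1, Pnrc1 and Cirbp completed the 10, with log2 ratios from 1.20 to 1.55. Mat2a makes the methyl donor S-adenosylmethionine, and Cirbp is a cold-inducible RNA-binding protein gene. Atf3, an immediate early gene that is also a target of ATF4, was on the other side, at 2.17 against 35.2 CPM. The list of immediate early genes was thus divided, with 10 of 16 above control.

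Genes of the G2 and M phases were lower in localized electroporation, and S phase genes were divided, with 9 of 20 above control and a median log2 ratio of -0.08. Of 22 genes of the G2 and M phases 20 were below control, with a median log2 ratio of -0.42 and none at least 2-fold, and up to 25000 UMIs 21 of 22 with a median of -0.59 (-0.18 in other cells up to 25000 UMIs). Top2a, a topoisomerase gene of dividing cells, was at 234 CPM (224 to 245) against 412 CPM (398 to 426) in control. Among the other lists, NRF2 targets, the antioxidant genes, had a median of 0.43 with Hmox1 at 90.2 against 43.7 CPM, and cholesterol genes had a median of -0.34 with 16 of 19 below. Targets of p53 had a median of -0.40 with 13 of 16 below. Of 12 host genes of small nucleolar RNAs 9 were below control (median -0.43), with Snhg12 at 62.6 against 228 CPM and Snhg8 at 243 against 238 CPM.

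Set against each other, bulk precursor-like cells had 96 of 6197 genes (1.55%) at least 2-fold above localized ones and 36 (0.581%) at least 2-fold below, beside 57 of 5975 (0.954%) and 39 (0.653%) in other cells. Of the 96, 39 were at least 2-fold higher up to 25000 UMIs, and of the 36, 16 were lower. All 20 genes of the integrated stress response were above localized in bulk, with a median log2 ratio of 1.18, and 0.93 up to 25000 UMIs. There 10 genes of the list, at its limit of 5 CPM, were at least 2-fold higher. Over all genes the limit was 20 CPM, and 32 were that much higher, a share not computed here. With the rich barcodes kept, the share over all genes was 1.55%. All 22 genes of the G2 and M phases were higher in bulk, with medians of 0.28 and 0.49. The 22 precursor genes were all lower in bulk (median -0.47), and 16 of 22 up to 25000 UMIs (median -0.25).

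Stmn4, a microtubule-regulating gene, was at 52.9 CPM in bulk and 7.78 CPM in localized precursor-like cells, and its log2 ratio of 2.62 was 2.60 up to 25000 UMIs. Acta2 had 2.46 and 1.66, and Rab3b, a vesicle traffic gene, 1.66 and 1.10. Tagln had 2.12 and 1.29, and -0.49 when the cells were called after thinning. On the lower side were Hes5 with -2.23 and -1.90, Col11a1, a fibrillar collagen gene, with -1.57 and -1.23, Fos with -1.55 and -1.37, Id1 with -1.42 and -1.57, Dll3 with -1.27 and -0.83, and Cnp with -1.25 and -1.07. Slc6a6, Egr1, Bpgm and Ugdh had ratios from -1.08 to -1.24.

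Medians of the lists of growth factor receptors, adhesion and guidance, heat shock and the unfolded protein response lay between -0.24 and 0.18 in both treatments, beside 0.08 and 0.09 over all genes, and that of glutamate receptors and channels was -0.47 in bulk and -0.24 in localized. The 17 genes of the unfolded protein response had median log2 ratios to control of -0.11 in bulk and 0.08 in localized precursor-like cells, but Herpud1, a gene of protein disposal at the endoplasmic reticulum, was at 64.2 CPM in control, 33.1 CPM in bulk and 25.6 CPM in localized. Growth factor receptors had medians of 0.06 and 0.07, with 21 genes compared in each. Erbb4 was the furthest from 0 of these in bulk, with a log2 ratio of -1.01. Adhesion and guidance genes had medians of -0.23 in bulk and -0.24 in localized, and the bulk value was 0.11 up to 25000 UMIs. Heat shock genes had medians of -0.06 and 0.18.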

How the data were processed

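Droplet 3′ libraries were deposited by the authors as UMI counts per gene and barcode, per the file headers, which name Cell Ranger 4. The submitters' processing notes list Cell Ranger 6, Seurat 4.0.4 and GRCm38. Which annotation release was used is not given in the sources used here. All 3 matrices hold all barcodes, so cells were selected here as the report states. Members and gene lists were chosen with earlier results of these data known. Counts were summed per library and class and scaled to CPM; log2 ratios add 1 CPM. Genes needed 20 CPM in either class to be counted at 2-fold and 5 CPM within a list. Genes named had at least 50 CPM: the 10 highest and 10 lowest ratios per comparison of libraries and the 15 highest and 15 lowest against other cells, without predicted, Riken and ribosomal protein genes, plus up to 4 per list and all precursor genes. Others named were chosen after their values were seen. Intervals are 95% exact Poisson, Clopper-Pearson or conditional binomial. No doublet caller was run; cells above 25000 UMIs were left out as an alternative. Free RNA was read from barcodes of 10 to 100 UMIs. The ratio step alone was run on simulated Poisson sums. These held no spread between cells and no rich barcodes, so the run cannot show how far such barcodes move a ratio. Promoters are from RefSeq. Python 3.11, numpy 2.4.6, scipy 1.17.1 and pandas 2.3.3 were used. Some genes of the lists are counted in them but not reported here by name.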

Additional observations from a re-analysis of the deposited data

Results flagged for a closer look

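For 9 of the named genes a log2 ratio had opposite signs in precursor-like and other cells, or in 2 libraries, with both 95% counting intervals clear of 0; named genes whose signs differed within these intervals are not given. With 1 library a group these differences were not tested, and only counting error stands behind each value.

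Between libraries, Sox6, a transcription factor of precursors, had a bulk over control ratio of -0.4601 in precursor-like and 0.1356 in other cells, and -0.0708 in precursor-like cells up to 25000 UMIs. Hspa1a, a heat shock gene, had a localized over control ratio of 1.419 in precursor-like and -0.3506 in other cells, but -0.5117 up to 25000 UMIs; 55 of its 65 UMIs in localized precursor-like cells lay in cells above 25000 UMIs. Epn2, an endocytosis gene, had a localized over control ratio of 0.1914 against -0.1769, and a bulk over localized ratio of -0.2841 against 0.1577. Rlbp1, a retinoid-binding protein gene, had a localized over control ratio of -0.2317 against 0.6208. Map2, a neuronal microtubule gene, had a bulk over localized ratio of -0.3035 against 0.1188, and 0.007814 up to 25000 UMIs.

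For precursor-like over other cells, Cdt1, a replication licensing gene, had a ratio of 0.2807 in bulk and -0.371 in localized electroporation. Nupr1 had -1.011 in control, 0.3637 in bulk and -1.142 in localized, and -0.05869 in bulk up to 25000 UMIs. Ung, a uracil repair gene, had -0.5374, 0.2878 and -0.3211. Rsad2 had -0.6891 in bulk and 0.6008 in localized, and -2.491 in bulk up to 25000 UMIs. Its localized levels were near the floor, at 1.26 against 0.489 CPM, where 3 UMIs equal 0.343 CPM in precursor-like cells.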

How the results depend on the processing

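No paired analysis was possible because each group had 1 library. Shares of precursor-like cells in control, bulk and localized electroporation were 9.801, 6.563 and 8.018% after thinning, 10.34, 12.13 and 11.06% with a minimum of 6000 UMIs, 7.569, 7.069 and 8.241% with at least 3 markers and 6.222, 5.641 and 7.082% with Pdgfra and 1 more. Counts of genes at 2-fold that moved by over 1.5 times follow; the cause was not tested. After thinning, bulk over control had 23 higher and 25 lower, bulk over localized 30 higher, and precursor-like over other cells 204 higher and 193 lower; Ifitm3 in bulk over control reversed to -0.06432 and Tagln in bulk over localized to -0.4919. Without cells above 25000 UMIs the counts were 19 and 25, 32 and 19 for bulk over localized, and 130 and 131 against other cells. As a mean over cells they were 28 and 28, 41 and 16, and 137 and 134. A minimum of 6000 UMIs gave 55 lower in bulk over localized and 7 lower against other cells. At least 3 markers gave 117 and 50, and Pdgfra with 1 more 26 lower, against other cells. A pseudocount of 5 CPM gave 59 higher in bulk and 34 higher in localized over control, 23 lower in bulk over localized and 7 lower against other cells. With no filter, which tests more genes, the counts were 445 and 87 (bulk over control), 334 and 124 (localized over control), 299 and 112 (bulk over localized) and 236 and 34 (against other cells). A filter of 50 CPM, which tests fewer, gave 31 and 29, 20 and 31, 48 and 15, and 25 and 8. With 10% free RNA taken away, 30 were lower against other cells. Median-of-ratios scaling moved none of these counts. Ratios were recomputed for the genes named as highest or lowest, and 1010 of 1650 stayed within their counting interval. A reversal was counted only for ratios of at least 2-fold, and 2 reversed. Genes named only from the lists were not in this count. Of those, Hspa1a in localized over control went from 1.419 to -0.5117 without cells above 25000 UMIs. With 1 library a group no spread between cultures was measured, and genes of few UMIs are limited by depth.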
